A study of Mus musculus with 8 samples.

Results

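The guanylate-binding protein family was followed through RNA sequencing of primary mouse embryonic fibroblasts, cells cultured directly from embryos. The family was taken as the genes named Gbp2, Gbp3, Gbp4, Gbp5, Gbp6, Gbp7, Gbp8 and Gbp9, and all 8 names were found among the 24972 genes of the deposited table. Cells came from embryos of embryonic day 14, were passaged 2 times and received no treatment. There were 4 genotypes with 2 libraries each: wild type (WT), heterozygous for Tfam (Tfam+/-), null for Zbp1 (Zbp1-/-), and both together (Tfam+/-Zbp1-/-). All groups are described with the same culture and RNA preparation, which does not show that they were handled together. Nothing in the labels ties the paired libraries to different embryos or cultures, so p-values measure only the spread between these libraries, which may be technical. The Tfam alleles of the Tfam+/- cells and the Zbp1 alleles of the Zbp1-/- cells are not described further in the labels.

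Guanylate-binding proteins are large GTPases of the dynamin superfamily whose genes are switched on by interferons. They bind to the vacuoles of intracellular parasites and to the surface of bacteria in the cytosol, and help to open them and to start inflammasome signalling. Some members carry a lipid anchor added by prenylation, and their targeting depends on the immunity-related GTPases and on part of the autophagy conjugation machinery. The product of Tfam packages mitochondrial DNA. Zbp1 is itself interferon-inducible and its product senses nucleic acids, so the genotypes allow the level of these interferon-inducible genes to be measured after loss of 1 Tfam allele, with and without Zbp1.

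Values are the authors' normalized counts. Library totals were 16752835 to 18303036. A gene was tested where its values averaged 10 or more across the 8 libraries, which left 13267 genes. The test was limma on log2(normalized count + 1), and a call means a Benjamini-Hochberg adjusted p, taken over all genes tested, below 0.05. Tfam was at 278 to 424 in the 4 libraries heterozygous for Tfam and at 471 to 675 in the other 4. Its log2 change was -0.96 in Tfam+/- against WT and -0.50 in Tfam+/-Zbp1-/- against Zbp1-/-. Neither was called (limma, adjusted p 0.16 and 0.40). Zbp1 reached 64.6 and 69.8 in the Tfam+/- pair, against 7.34 and 3.19 in the WT pair and 0.86 to 3.79 in the 4 Zbp1-null libraries, and with so few reads in WT it cannot serve as a check on the Zbp1-/- label. The fibroblast label was checked on 10 markers, all tested, with Col1a1, the defining collagen, at 103970 to 193670 and Fn1, the most abundant marker, at 145190 to 192110. Tfam+/- replicate 1 and Zbp1-/- replicate 2 stood apart: each was compared with its sister library, and across genes the 2 sets of differences correlated at r = 0.70, and the replicates of these genotypes correlated at 0.973 and 0.975 against 0.992 in both others. Each change of a member, and the counts of calls in the related gene lists, are therefore also given with a model term shared by these 2 libraries and from the other 6 libraries. The fit of 6 leaves a lone library for Tfam+/- and for Zbp1-/-, whose spread is then taken from the pairs of the remaining genotypes. For the interaction, both fits give the same estimate by construction.

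The family sits in 2 clusters on the genome (GRCm38.p6, the assembly also called mm10). On chromosome 3, from 142496934 to 142638008, the order is Gbp5, Gbp7, Gbp3, Gbp2b and Gbp2, all on the plus strand. On chromosome 5, from 105012513 to 105346476, the order is Gbp8, Gbp9, Gbp4, Gbp10, Gbp6 and Gbp11, all on the minus strand. Gbp2b, Gbp10 and Gbp11, a transcribed pseudogene, are not among the 8 members. The members are spliced genes, with 10 exons in the transcript used here for Gbp8 and 11 in each of the others. Gbp4 is also listed as an older symbol of Gbp3, and the deposited table has a row for each name.

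Near-identical copies limit how reads can be assigned within the family. Of the 50-base windows of the Gbp6 transcript, 62.3% occur letter for letter in Gbp10 transcripts, and 70.3% occur in at least 1 other family gene. The share found in any other family gene was 2.07% for Gbp2, 4.79% for Gbp3, 2.28% for Gbp7, 9.56% for Gbp9, 12.8% for Gbp4, 21.2% for Gbp8 and 0% for Gbp5. The level of Gbp6 is therefore uncertain to the extent that reads of Gbp10 could be counted to it, and Gbp2, Gbp3, Gbp5 and Gbp7 are the members least touched. How the authors assigned shared reads is not stated in the labels.

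Promoter windows were available in RefSeq sequence (GRCm38.p6) for 4 of the 8 members, all on chromosome 3: Gbp2, Gbp3, Gbp7 and Gbp5. Of these 4 genes, Gbp2, Gbp3 and Gbp7 moved together across the genotypes, and Gbp5 was too low to be tested. The Tfam+/- libraries of Gbp5 (3.87 and 9.21) were still above its WT libraries (1.03 and 0.98). Gbp6 and Gbp9 had no window, so the place of a match cannot be set against the response of the family. Each window was searched from 250 bases before to 50 bases after the annotated transcript start for the core of the interferon-stimulated response element (ISRE), bound by a complex that holds Stat2 and Irf9 and by other interferon regulatory factors, and for the core of the gamma-activated site (GAS), an element of genes that respond to interferon gamma. The letters searched were GAAANNGAAA and, on the other strand, TTTCNNTTTC for the ISRE, and TTCNNNGAA, which reads the same on both strands, for the GAS. The 250 bases before the start are printed on the plus strand, 5′ to 3′, with ISRE matches in capitals. They cover chr3:142620413-142620662 for Gbp2, chr3:142559794-142560043 for Gbp3, chr3:142530086-142530335 for Gbp7 and chr3:142496684-142496933 for Gbp5.
Gbp2: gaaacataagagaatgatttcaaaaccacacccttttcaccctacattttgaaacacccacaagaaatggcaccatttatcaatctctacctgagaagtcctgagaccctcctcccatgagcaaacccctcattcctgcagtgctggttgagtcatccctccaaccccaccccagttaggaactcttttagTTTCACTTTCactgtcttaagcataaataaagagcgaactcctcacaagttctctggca
Gbp3: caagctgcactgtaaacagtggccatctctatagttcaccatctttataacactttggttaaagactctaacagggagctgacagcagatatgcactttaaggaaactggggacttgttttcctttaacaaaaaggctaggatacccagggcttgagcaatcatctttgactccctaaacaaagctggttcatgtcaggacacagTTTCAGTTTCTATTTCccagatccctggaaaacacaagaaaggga
Gbp7: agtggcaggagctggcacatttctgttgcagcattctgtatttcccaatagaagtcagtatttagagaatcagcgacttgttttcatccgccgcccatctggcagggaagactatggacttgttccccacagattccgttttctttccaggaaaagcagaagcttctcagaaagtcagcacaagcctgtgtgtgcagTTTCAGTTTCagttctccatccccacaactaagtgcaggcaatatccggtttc
Gbp5: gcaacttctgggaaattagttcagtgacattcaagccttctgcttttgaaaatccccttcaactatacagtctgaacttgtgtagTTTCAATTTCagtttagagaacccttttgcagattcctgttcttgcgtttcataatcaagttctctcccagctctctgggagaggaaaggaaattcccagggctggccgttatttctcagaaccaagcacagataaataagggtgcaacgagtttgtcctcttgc

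All 4 genes held an ISRE match in the printed window. The match began 59 bases before the start in Gbp2 (TTTCACTTTC) and 53 bases before it in Gbp7 (TTTCAGTTTC). In Gbp3 there were 2 overlapping matches, beginning 45 and 39 bases before the start. In Gbp5 the match (TTTCAATTTC) began farther out, at 165 bases. Among 32851 windows of the same length, 3.44% held an ISRE match and 8.3% a GAS match. Counted by gene, the shares with a match in any window were 3.99% and 9.55%. GAS matches were found in Gbp7, beginning 106 and 87 bases before the start, and in Gbp5, beginning 245 and 52 bases before it. These letters did not occur in the windows of Gbp2 and Gbp3. A second annotated start of Gbp3 had neither motif in its window. No ISRE match overlapped a GAS match. The matches are a description of the letters and not of binding.

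**Figure D1:**
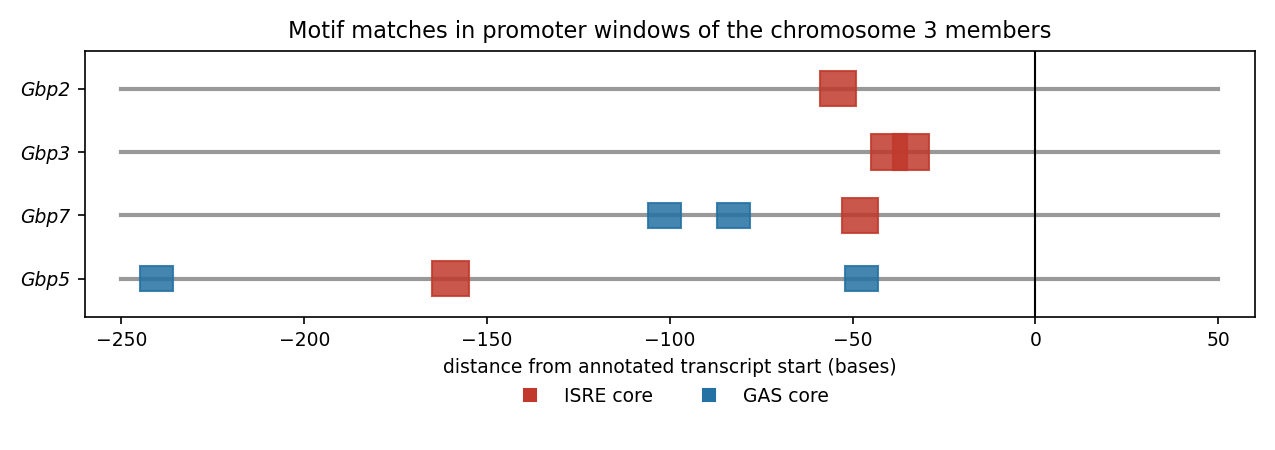
Position of ISRE core matches (red) and GAS core matches (blue) in the promoter windows of Gbp2, Gbp3, Gbp7 and Gbp5, as distance in bases from the annotated transcript start (vertical line, transcription to the right). ISRE matches of Gbp2, Gbp3 and Gbp7 begin 39 to 59 bases before the start, and that of Gbp5 begins 165 bases before it.

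Of the 8 members, 5 passed the filter on low values: Gbp2, Gbp3, Gbp6, Gbp7 and Gbp9. None of these 5 passed only through 1 genotype, since the lowest value of any of them in any library was 22.7. The other 3, Gbp4, Gbp5 and Gbp8, were near 0 and were not tested.

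Gbp2, which coats parasite vacuoles and is anchored to membranes by a lipid, was the most abundant member. Its normalized counts were 164 and 174 for the WT pair, 494 and 573 for the Tfam+/- pair, 236 and 227 for the Zbp1-/- pair, and 206 and 196 with both mutations. Both Tfam+/- libraries were above all others, both WT libraries were below all others, and no genotype overlapped another. How many of all tested genes separate from every other genotype was not counted, here or for the members below. The mean in Tfam+/- was 3.15 times that in WT and 2.65 times that in Tfam+/-Zbp1-/-.

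Gbp3, a neighbour of Gbp2 that is likewise recruited to parasite vacuoles, had the largest ratio between genotypes among the 5 tested members. The WT pair had 36.7 and 37.8 normalized counts, the Tfam+/- pair 235 and 323, the Zbp1-/- pair 41.9 and 48.0, and the Tfam+/-Zbp1-/- pair 72.3 and 61.5. The 4 genotypes did not overlap. Tfam+/-Zbp1-/- lay between Zbp1-/- and Tfam+/-. The mean in Tfam+/- was 7.5 times that in WT and 4.17 times that in Tfam+/-Zbp1-/-.

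Gbp7, which has been linked to oxidative and vacuolar defence, had 73.5 and 80.2 normalized counts in the WT pair and 235 and 383 in the Tfam+/- pair. The Zbp1-/- pair had 106 and 73.1, and the Tfam+/-Zbp1-/- pair 112 and 101. The Zbp1-/- libraries spanned the WT range and overlapped Tfam+/-Zbp1-/-, while Tfam+/- stood clear of all others. The mean in Tfam+/- was 4.02 times that in WT.

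Gbp6 and Gbp9, the 2 members of the chromosome 5 cluster that were tested, are also found on parasite vacuoles after interferon. For Gbp6 the WT pair had 22.7 and 27.5, the Tfam+/- pair 79.5 and 146, the Zbp1-/- pair 57.0 and 30.8, and the Tfam+/-Zbp1-/- pair 47.5 and 52.4. For Gbp9 the WT pair had 36.3 and 32.6, the Tfam+/- pair 105 and 171, the Zbp1-/- pair 68.3 and 38.0, and the Tfam+/-Zbp1-/- pair 30.8 and 42.5. For both genes the lower Tfam+/- library was above every library of the other genotypes, and the Zbp1-/- libraries lay far apart. Gbp9 in Tfam+/-Zbp1-/- spanned the WT values, whereas Gbp6 in Tfam+/-Zbp1-/- was above both WT libraries.

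The wide replicates of Gbp6, Gbp7 and Gbp9 were the libraries that stood apart across all genes. On the log2 scale, Tfam+/- replicate 1 differed from replicate 2 by -0.87 for Gbp6, -0.70 for Gbp7 and -0.71 for Gbp9. Zbp1-/- replicate 2 differed from replicate 1 by -0.87, -0.54 and -0.83 for the same genes. For Gbp2 these differences were -0.21 and -0.06, and for Gbp3 they were -0.45 and 0.19. Gbp6, Gbp7 and Gbp9 were thus lower in both of these libraries, and Gbp2 and Gbp3 varied less or in opposite directions.

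The low members were Gbp4, Gbp5 and Gbp8. Gbp4, which has been tied to restraint of Irf7, was listed at 0 in both WT libraries. The Tfam+/- pair had 11.0 and 6.55, the Zbp1-/- pair 5.30 and 2.78, and the Tfam+/-Zbp1-/- pair 2.97 and 1.03. Both Tfam+/- libraries were the highest of the 8. Gbp5, a prenylated member tied to the Nlrp3 inflammasome, had 1.03 and 0.98 in the WT pair, 3.87 and 9.21 in the Tfam+/- pair, 0 and 1.92 in the Zbp1-/- pair, and 3.98 and 3.11 in the Tfam+/-Zbp1-/- pair. Its Tfam+/- and Tfam+/-Zbp1-/- libraries overlapped. Gbp8 was listed at 0 in all 8 libraries. The most repeated value of a library, which may stand for 1 read, was 0.93 to 1.10, so these levels rest on few reads and differences among them were not detectable at this depth unless large. With no filter on low values, where limma called 0.366% of genes higher in Tfam+/- than in WT, Gbp4 had an adjusted p of 0.054 and Gbp5 of 0.47. The 3 family genes that are not members were low too: Gbp2b was at 0 to 1.96, Gbp10 at 0 to 4.97 and Gbp11 at 0 to 4.14 in all libraries.

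**Figure D2:**
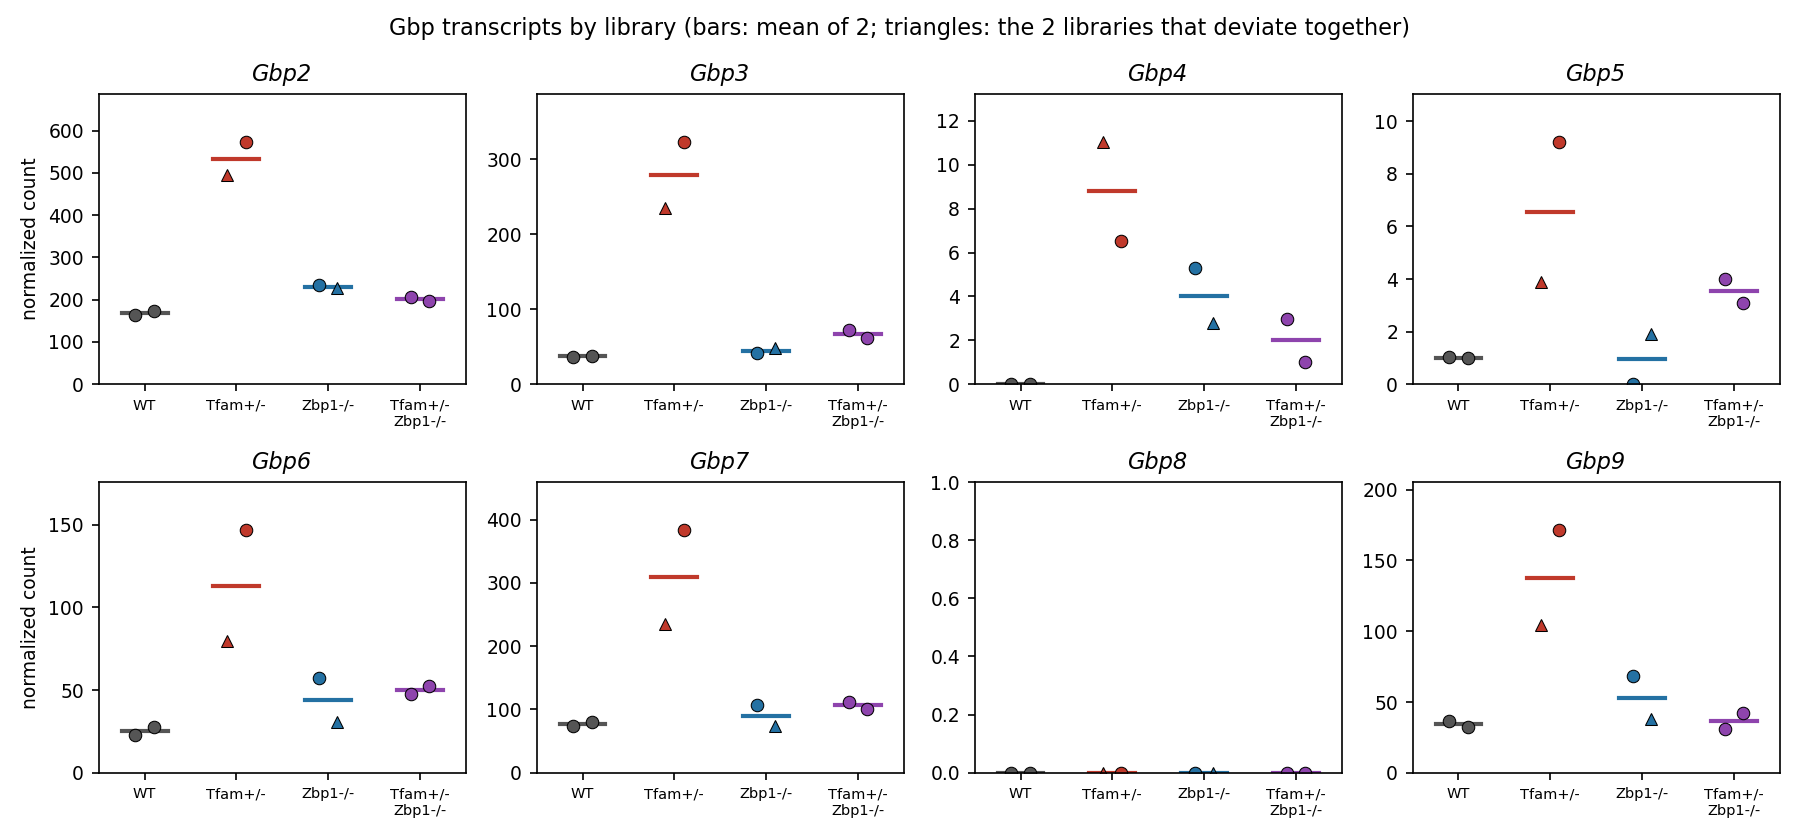
Normalized counts of the 8 members by genotype, on a separate linear axis from 0 for each gene, with a point for each library and a bar at the mean of 2; triangles mark Tfam+/- replicate 1 and Zbp1-/- replicate 2. For Gbp2, Gbp3, Gbp6, Gbp7 and Gbp9 both Tfam+/- libraries lie above all others, and Gbp8 is at 0 throughout. Of all tested genes, 23.3% were higher in Tfam+/- than in WT without overlap. The share above all other libraries was not counted.

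Levels between members were compared per kilobase of transcript. The order depends on the transcripts used, of 5.61 kb for Gbp7 and 2.68 kb for Gbp3, and which transcripts the cells make was not measured. Before division, the means of Gbp7 and Gbp3 were 76.8 and 37.2 in WT and 309 and 279 in Tfam+/-. The level of Gbp6 is also subject to the shared reads described above. In WT, Gbp2 had the highest level, with 67.3 normalized counts per kilobase, and was clear of Gbp3 at 13.9 and Gbp7 at 13.7. Gbp3 and Gbp7 did not differ beyond their spread, at 13.7 to 14.1 and 13.1 to 14.3. Gbp6 at 9.64 and Gbp9 at 7.87 followed, without overlap, and Gbp5 was at 0.329. In Tfam+/-, Gbp2 was at 212 and Gbp3 at 104 per kilobase, without overlap between them. Gbp7 at 55.0, Gbp6 at 43.4 and Gbp9 at 31.5 came next, and the libraries of each overlapped those of its neighbour. On this scale Gbp3 and Gbp7 were level with each other in WT and separated in Tfam+/-, where Gbp3 was at 87.8 to 120 and Gbp7 at 41.8 to 68.2. In Tfam+/-Zbp1-/- the order was Gbp2 at 80.0, Gbp3 at 24.95, Gbp6 at 19.2, Gbp7 at 19.05 and Gbp9 at 8.36, with Gbp6 and Gbp7 overlapping. In Zbp1-/- it was Gbp2 at 91.9, then Gbp6 at 16.85, Gbp3 at 16.8 and Gbp7 at 16, which overlapped, and Gbp9 at 12.1, which overlapped Gbp6 and Gbp7 but not Gbp3.

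Loss of 1 Tfam allele was examined in Tfam+/- against WT. All 5 tested members were higher in both Tfam+/- libraries than in both WT libraries, a separation seen in 23.3% of all tested genes. Among the 3 members that were not tested, Gbp4 and Gbp5 were also higher without overlap. The share above does not cover genes this low, and none was computed for them. Gbp2, Gbp3 and Gbp7 were called higher, 3 of 5 tested, against 0.565% of all genes. The log2 changes were 1.65 ± 0.13 (SE) for Gbp2, 2.86 ± 0.20 for Gbp3 and 1.95 ± 0.28 for Gbp7 (limma, adjusted p 0.0034, 0.0031 and 0.039). Gbp6 at 2.07 ± 0.38 and Gbp9 at 1.93 ± 0.36 did not pass the threshold (adjusted p 0.096 and 0.10). The median over the 5 was 1.95, beside -0.01 over all genes tested. In bulk cultures, fewer cells of a type and less RNA per cell cannot be told apart.

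With the term for the 2 libraries that stood apart, all 5 members were called higher, with log2 changes of 1.71 for Gbp2, 2.92 for Gbp3, 2.50 for Gbp6, 2.26 for Gbp7 and 2.31 for Gbp9. In the 6 libraries the 5 changes were 1.75, 3.08, 2.50, 2.30 and 2.28, and all 5 were called. These fits called 7.39% and 6.98% of all genes higher. Left out 1 at a time, either WT library ended the calls of all 3 members, and the calls over all genes fell from 97 of 13267 (0.731%) to 12 (0.0904%) in each of these 2 limma fits. Without WT replicate 1 the values of Gbp2, Gbp3 and Gbp7 were 1.61, 2.84 and 1.89 and none was called (limma, adjusted p 0.075, 0.060 and 0.35). Without WT replicate 2 they were 1.69, 2.88 and 2.01 and again none was called (adjusted p 0.062, 0.053 and 0.29). Gbp7 also lost its call without Tfam+/- replicate 2 (1.60, adjusted p 0.081) and, with its value kept at 1.95, without either Tfam+/-Zbp1-/- library (adjusted p 0.13 for both).

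Loss of Zbp1 in cells heterozygous for Tfam was examined in Tfam+/-Zbp1-/- against Tfam+/-, which shares the Tfam+/- libraries with the comparison above. All 5 tested members were lower in both Tfam+/-Zbp1-/- libraries, without overlap, as were 13.5% of all tested genes. Gbp2, Gbp3, Gbp7 and Gbp9 were called lower, 4 of 5, against 2.32% of all genes. The log2 changes were -1.40 ± 0.13 (SE) for Gbp2, -2.03 ± 0.20 for Gbp3, -1.48 ± 0.28 for Gbp7 and -1.86 ± 0.36 for Gbp9 (limma, adjusted p 0.0033, 0.0043, 0.029 and 0.032). Gbp6 at -1.10 ± 0.38 did not pass (adjusted p 0.16). The median over the 5 was -1.48, beside 0.14 over all genes tested. Rescaling the libraries to a trimmed mean of M-values brought the median of all genes to 0.02 and that of the 5 members to -1.61, and the 440 genes called higher and 308 called lower became 313 and 429.

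With the shared term all 5 were called lower, at -1.47 for Gbp2, -2.10 for Gbp3, -1.53 for Gbp6, -1.79 for Gbp7 and -2.24 for Gbp9. In the 6 libraries they were -1.51, -2.26, -1.54, -1.83 and -2.21, all called. These fits called 10.2% and 9.87% of all genes lower. All 4 calls from the 8 libraries were lost without Tfam+/-Zbp1-/- replicate 1, where Gbp2, Gbp3, Gbp7 and Gbp9 were at -1.43, -2.15, -1.55 and -1.63 (limma, adjusted p 0.056, 0.056, 0.17 and 0.24). They were also lost without replicate 2, at -1.36, -1.92, -1.41 and -2.09 (adjusted p 0.063, 0.068, 0.21 and 0.14). Of all genes, these 2 fits called 13 (0.098%) and 12 (0.0904%), against 748 (5.64%) from all 8 libraries. Gbp7 and Gbp9 further lost their calls without Tfam+/- replicate 2 (-1.13 and -1.51) and, with values kept at -1.48 and -1.86, without either WT library. In a fit of these 2 genotypes alone, which called 1.12% of all genes lower, Gbp7 and Gbp9 were not called (limma, adjusted p 0.062 and 0.052).

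Markers of other cells moved in this comparison too. Of 12 leukocyte markers 10 were tested, and Cd3e, which defines T lymphocytes, was listed at 0 in all libraries. The summed level of the 12 was 2619 to 2654 in WT, 3249 to 4207 in Tfam+/-, 1824 to 1907 in Zbp1-/-, and 1395 to 1409 in Tfam+/-Zbp1-/-. In Tfam+/-Zbp1-/- against Tfam+/- 9 of 10 were called lower, with a median of -1.29, and the most abundant, Csf1r, was at -1.39 ± 0.14 (SE, limma adjusted p 0.0041). In Tfam+/- against WT 9 of 10 were above 0 and limma called 0, with 6 at an unadjusted p under 0.05. Tfam+/- replicate 1 had the higher leukocyte sum of its genotype. Its values of Gbp2, Gbp3, Gbp6, Gbp7 and Gbp9 were below those of replicate 2. Ptprc (96.6 against 169) and Adgre1 (294 against 339) were also lower in Tfam+/- replicate 1, while the other tested leukocyte markers were higher. This library was among those that stood apart. In Zbp1-/- against WT 0 of 10 were above 0, and limma called 0, with 6 at an unadjusted p under 0.05. The keratins Krt8 (-1.19) and Krt18 (-1.64) were called lower in Tfam+/-Zbp1-/- against Tfam+/-, 2 of 2 epithelial markers tested. In Tfam+/- against WT these keratins were at 1.04 and 0.23 and were not called (limma, adjusted p 0.21 and 0.60). Of 3 endothelial markers tested, Emcn (-2.003) was called lower, and Kdr (-0.54) and Tek (1.31) did not pass (adjusted p 0.10 and 0.061). Of the 10 fibroblast markers, Col3a1 (0.59) and Lum (1.80) were called higher, while Thy1 was at -0.71 (adjusted p 0.077) and the median was 0.16, beside 0.14 over all genes. For the same comparison, the fits that took out the libraries that stood apart each called lower 10 of 10 leukocyte markers and both keratins. Each also called 1 endothelial marker higher and 2 lower, and 8 fibroblast markers higher and 2 lower. The shared-term fit and the fit of 6 called 45.6% and 43.6% of all genes in either direction. In Tfam+/- against WT they called 5 and 3 leukocyte markers higher. The defining genes Epcam, Cdh1, Pecam1 and Cdh5 were at 0 to 7.48 in all libraries. The part of these cells in the results for the members was not tested.

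Whether the change with Tfam genotype differed by Zbp1 genotype was tested as the interaction, which subtracts the step from WT to Tfam+/- from the step between the genotypes without Zbp1. All 5 tested members were below 0, with a median of -1.85 beside 0.00 over all genes. Gbp2 at -1.85 ± 0.18 (SE) and Gbp3 at -2.29 ± 0.29 were called (limma, adjusted p 0.019 and 0.030), 2 of 5 against 0.445% of all genes called below 0. Gbp6 at -1.82 ± 0.54, Gbp7 at -1.68 ± 0.39 and Gbp9 at -2.41 ± 0.51 did not pass (adjusted p 0.22, 0.13 and 0.11). With the shared term all 5 were called, at -1.98, -2.42, -2.69, -2.30 and -3.18 for Gbp2, Gbp3, Gbp6, Gbp7 and Gbp9, as in the 6 libraries. These fits called 8.43% and 9.14% of all genes below 0. The calls of Gbp2 and Gbp3 were lost on leaving out either WT library, either Tfam+/-Zbp1-/- library, or Zbp1-/- replicate 2, with Gbp2 at -1.89 to -1.80 and Gbp3 at -2.41 to -2.18. In each of these 5 fits limma called 0 of the 13267 genes, with 1005 to 1210 at an unadjusted p under 0.05, against 88 called from all 8 libraries. Gbp3 was also lost without Zbp1-/- replicate 1 (-2.39, limma adjusted p 0.054) and with no filter on low values (adjusted p 0.054), where 0.169% of genes were called below 0. Leukocyte and epithelial markers moved in this test too. Of the 10 tested leukocyte markers 1 was above 0, and the median was -0.70. Of these, limma called 0, with 7 at an unadjusted p under 0.05. Krt8 was at -1.83 and Krt18 at -1.21 (limma, adjusted p 0.090 and 0.16). The shared-term fit called 6 of the 10 leukocyte markers and both keratins below 0. The part of these cells in the interaction was not tested.

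**Figure D3:**
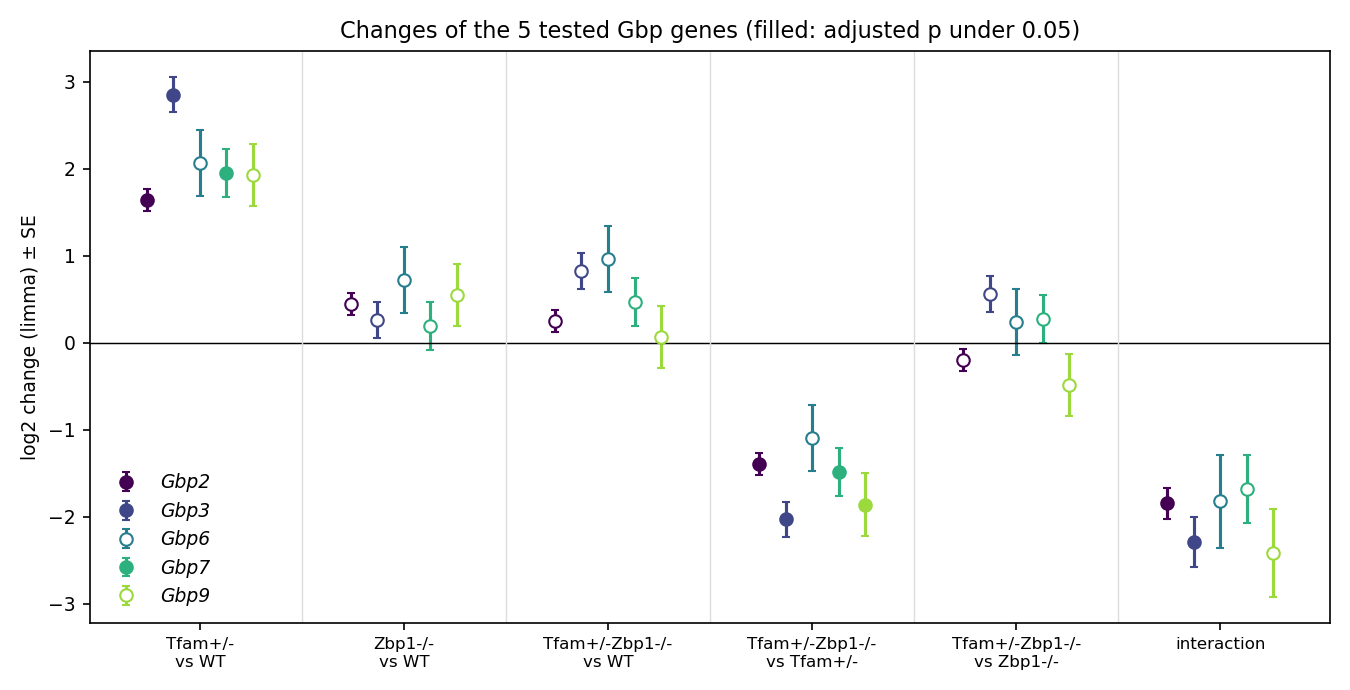
Log2 change of Gbp2, Gbp3, Gbp6, Gbp7 and Gbp9 in each comparison, with SE from limma over all 8 libraries; filled points have an adjusted p under 0.05. Changes lie between 1.65 and 2.86 in Tfam+/- against WT and between -2.03 and -1.10 in Tfam+/-Zbp1-/- against Tfam+/-.

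**Figure D4:**
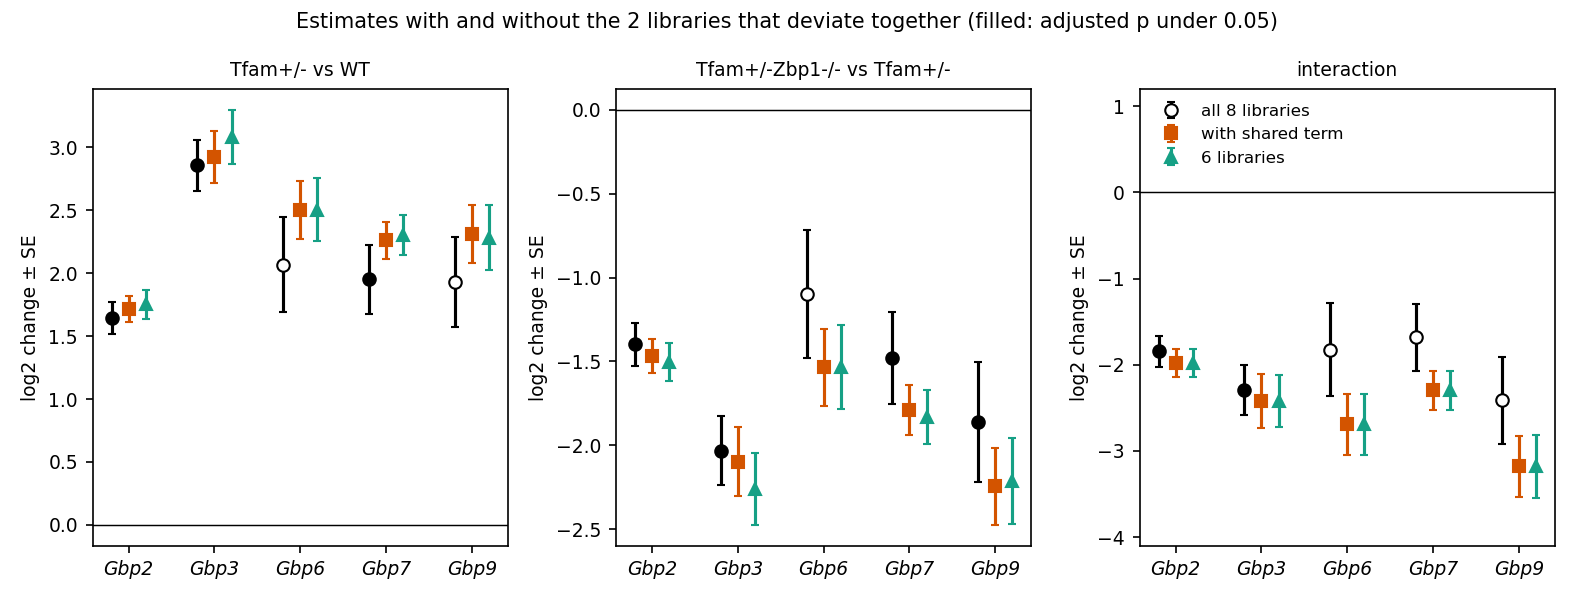
Log2 change with SE of the 5 tested members in 3 comparisons from all 8 libraries (black circles), with the shared term (orange squares) and from the 6 libraries (green triangles); filled points have an adjusted p under 0.05. Gbp2 and Gbp3 move little between fits, while Gbp6, Gbp7 and Gbp9 lie farther from 0 in the fits that take out the libraries that stood apart.

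Loss of Zbp1 alone was examined in Zbp1-/- against WT. The log2 changes were 0.45 ± 0.13 (SE) for Gbp2, 0.26 ± 0.20 for Gbp3, 0.72 ± 0.38 for Gbp6, 0.20 ± 0.28 for Gbp7 and 0.55 ± 0.36 for Gbp9. limma called 0 of 5, against 1.06% of all genes, and 1, Gbp2, had an unadjusted p under 0.05 (0.010, adjusted 0.16). The median of all genes was 0.11 in this comparison and 0.12 in Tfam+/-Zbp1-/- against WT, and close to 0 in both after rescaling, where the genes called were 60 higher and 23 lower here (119 and 22 before) and 92 higher and 98 lower there (119 and 64 before). Of the 5, all but Gbp7 were higher in both Zbp1-/- libraries than in both WT libraries, against 42.1% of all tested genes. With the shared term 4 were called higher, at 0.51 for Gbp2, 1.16 for Gbp6, 0.51 for Gbp7 and 0.94 for Gbp9, and these 4 were also called in the 6 libraries. These fits called 28.5% and 27.2% of all genes higher. Leaving out 1 Zbp1-/- library put Gbp6 at 0.29 without replicate 1 and at 1.16 without replicate 2, Gbp9 at 0.14 and 0.97, and Gbp7 at -0.069 and 0.47, with 0 of the 5 called.

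Tfam+/-Zbp1-/- was also set against each of the genotypes with both Tfam alleles. Against WT the log2 changes were 0.25 ± 0.13 (SE) for Gbp2, 0.82 ± 0.20 for Gbp3, 0.97 ± 0.38 for Gbp6, 0.47 ± 0.28 for Gbp7 and 0.07 ± 0.36 for Gbp9. limma called 0 of 5, against 1.38% of all genes, and Gbp3 (0.0053, adjusted 0.13) and Gbp6 (0.039, adjusted 0.36) had an unadjusted p under 0.05. Except for Gbp9, the tested members were higher in both libraries than in WT, against 58.8% of all tested genes. With the shared term, as in the fit of 6, Gbp2, Gbp3, Gbp6 and Gbp7 were called higher, where 35.3% and 37.1% of all genes were called higher. A fit of only these 2 genotypes, whose replicates were the closest, called Gbp3, Gbp6 and Gbp7 higher, along with 37.1% of all genes.

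Against Zbp1-/-, the change with Tfam genotype when Zbp1 was absent, the members did not share a direction. Gbp3 was at 0.56 ± 0.20 (SE), Gbp7 at 0.27 ± 0.28, Gbp6 at 0.24 ± 0.38, Gbp2 at -0.20 ± 0.13 and Gbp9 at -0.48 ± 0.36. limma called 0 of 5, against 0.415% of all genes, with 1, Gbp3, at an unadjusted p under 0.05 (0.029, adjusted 0.33). Gbp3 was higher and Gbp2 lower without overlap, against 26.2% and 23.3% of all genes. With the shared term Gbp9 was called lower (-0.87, adjusted p 0.0095), and in the 6 libraries Gbp9 was called lower (-0.90, adjusted p 0.017) and Gbp3 higher (0.66, adjusted p 0.034). These fits called 23.8% and 23.4% of all genes. Gbp6 turned to -0.19 with the shared term, in the 6 libraries and without Zbp1-/- replicate 2.

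The immunity-related GTPases, which act on the same vacuoles and govern where guanylate-binding proteins go, were the family closest in function. Of 8 genes listed, 7 were tested, and 5 were called higher in Tfam+/- than in WT: Irgm1 at 1.91, Irgm2 at 1.93, Igtp at 2.62, Iigp1 at 2.73 and Ifi47 at 1.78. The median of the 7 tested was 2.07, beside 1.95 for the 5 guanylate-binding proteins. In Tfam+/-Zbp1-/- against Tfam+/- 5 of the 7 were called lower, with a median of -1.67. The interaction was called below 0 for 3, Irgm1, Irgm2 and Igtp. All 7 were called in these 3 comparisons, in the same directions, by both the shared-term fit and the fit of 6. The difference between the families was not tested.

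The 3 interferon genes listed were at or near 0: Ifng and Ifnb1 were listed at 0 in all 8 libraries, and Ifna4 was at 1.10 in Tfam+/- replicate 1 and at 0 elsewhere. The receptor genes Ifngr1, Ifngr2, Ifnar1 and Ifnar2 were all tested, and 0 of 4 were called in Tfam+/- against WT in limma, with 0 at an unadjusted p under 0.05. Ifnar1 was called higher in Tfam+/-Zbp1-/- than in Tfam+/- (0.65 ± 0.12, SE, adjusted p 0.030), the opposite direction to the members. Among 13 tested kinases and transcription factors of interferon signalling, 5 were called higher in Tfam+/-, among them Stat2 at 1.69, Irf9 at 1.48, Irf7 at 3.46 and Nlrc5 at 1.76. These 4 were called lower in Tfam+/-Zbp1-/- against Tfam+/-, at -1.23, -0.93, -2.43 and -1.19, where 5 of the 13 were called. The shared-term fit and the fit of 6 each called 8 of the 13 higher in Tfam+/- than in WT. For Tfam+/-Zbp1-/- against Tfam+/- they called 6 and 7 lower and each called 3 higher, and of the 4 receptor genes each called 2 higher and 2 lower. Stat2 and Irf9 are parts of the complex that binds the ISRE. Genes induced mainly by interferon gamma were low: of 7 listed, 0 passed the filter. The most abundant, H2-Ab1, was at 2.75 to 15.6. The summed level of the 7 was 50.8 and 34.7 in the Tfam+/- pair and 18.5 to 25.9 in the other genotypes. These sums rest on few reads, and their difference was not tested.

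Among genes that act with the proteins, calls from all 8 libraries were few. The ubiquitin ligases Rnf213, at 1.95, and Trim21, at 1.05, were called higher in Tfam+/-, 2 of 4 tested, and were called lower in Tfam+/-Zbp1-/- against Tfam+/- at -1.50 and -0.89. Of 6 inflammasome genes, limma called 0 in Tfam+/- against WT, with 2 at an unadjusted p under 0.05, and the most abundant, Gsdmd, was at 0.88 ± 0.18 (SE, adjusted p 0.13). In Tfam+/-Zbp1-/- against Tfam+/- 1 of these 6 was called, Nlrp3, at -1.72. Of 10 genes of the autophagy conjugation machinery, 6 prenylation enzymes and 3 atlastins, GTPases related to the family, limma called 0 in either of these comparisons. At an unadjusted p under 0.05 there were 0 of these genes in Tfam+/- against WT and 1, Fnta, at 0.30 (limma, adjusted p 0.19) in Tfam+/-Zbp1-/- against Tfam+/-. Gabarap, the most abundant of the conjugation genes, was at 0.09, Zmpste24 of the prenylation genes at -0.51 and the atlastin Atl3 at -0.59 (adjusted p 0.69, 0.56 and 0.56). The shared-term fit and the fit of 6 each called 3 of 4 ligases higher in Tfam+/- than in WT and 3 lower in Tfam+/-Zbp1-/- than in Tfam+/-. Gsdmd was called higher in Tfam+/- by both (0.70 and 0.71). For Tfam+/-Zbp1-/- against Tfam+/-, the shared-term fit called higher 4 of 6 prenylation enzymes, 1 of 3 atlastins and 4 of 10 conjugation genes. In this comparison it called 45.6% of all genes in either direction. The medians of these 3 lists in the fit of 6 were 0.19, 0.20 and 0.02. In Tfam+/- against WT the shared-term fit called 1 prenylation enzyme and 1 atlastin lower.

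**Figure D5:**
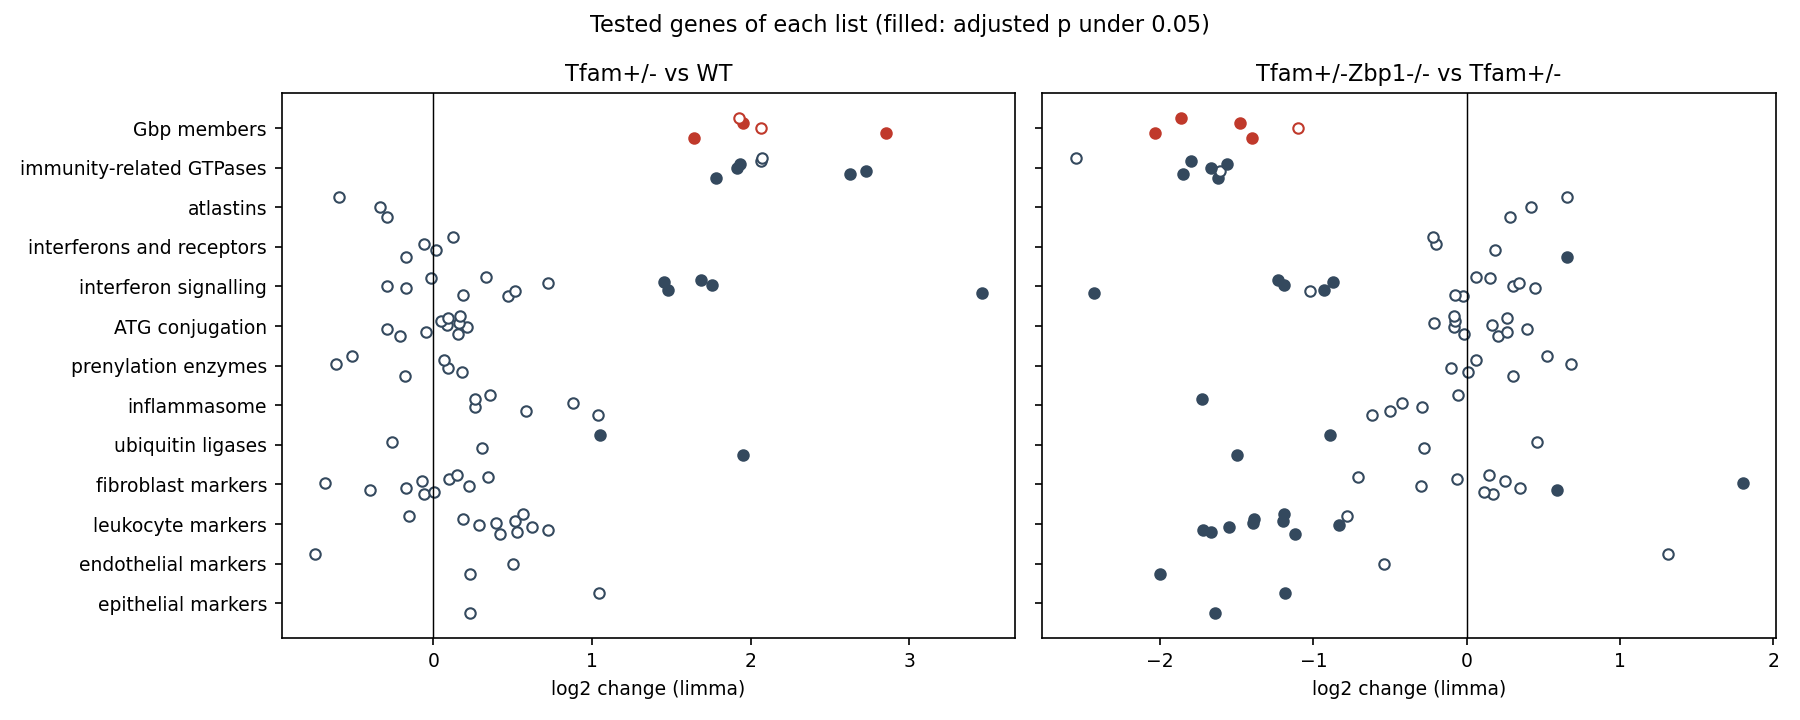
Log2 change from limma of each tested gene, by list, in Tfam+/- against WT (left) and Tfam+/-Zbp1-/- against Tfam+/- (right); filled points have an adjusted p under 0.05, and the 5 tested members are in red. Members and immunity-related GTPases lie at 1.65 to 2.86 and 1.78 to 2.73 on the left.

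Genes were also ranked by how similar their values were to each tested member over the 8 libraries. Pearson's r of log2 values between pairs of the 5 tested members was 0.86 to 0.97, lowest for Gbp3 with Gbp9 and highest for Gbp3 with Gbp7. These correlations share the genotype differences and the libraries that stood apart, and are a description. For Gbp2 the genes outside the family with the most similar values were Rnf213 (r = 0.99), Trim30a and Parp14. For Gbp3 they were Irf9 (r = 0.99), Mx2 and Prep, of which Prep differed little in size, at 0.16 in Tfam+/- against WT. For Gbp7 they were Ddx58 (r = 0.99), Trim21 and Trim30d. For Gbp6 they included Iigp1 (r = 0.99) and Ccl7, and for Gbp9 they were Ccl7 (r = 0.97), Ccl2 and Ifi47. Iigp1, most like Gbp6, had the same fall in Zbp1-/- replicate 2, with 78.8 and 38.2 normalized counts in the 2 Zbp1-/- libraries.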

How the data were processed

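Values are normalized counts made by the authors, here treated as a signal for each gene. Per the series' design text, STAR aligned the reads to mm10 with RefSeq genes on the BaseSpace platform, whose differential expression tool followed. The submitters' processing notes name STAR 2.6.1a and Salmon. The scaling and any use of strand are not stated there. Among values of up to 20 times the most repeated value, only 22.2% to 35% lay within 0.01 of a whole multiple of it, so reads were not recovered and no count model was run.

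Each library was placed by its title. limma 3.58.1 in R 4.3.3 (lmFit, eBayes with a trend) fitted log2(value + 1) in the 4 genotypes together, with 4 residual and 2.77 prior degrees of freedom, two-sided. The pipeline was run on simulated data with independent noise in each library, which cannot speak to libraries that deviate together. With 2 libraries a group, the smallest p of an exact permutation test is 0.333. The members and lists were chosen with earlier results of these data known. Named genes were the members, the other Gbp genes and list genes called in Tfam+/- against WT (else the most abundant of a list). The 3 genes most correlated with each tested member were also named. Added after their values were seen were the interferons, Nlrp3, Fnta and the markers Col1a1, Cd3e, Krt8, Emcn, Kdr, Tek and Col3a1. So were the markers Lum, Thy1, Epcam, Cdh1, Pecam1, Cdh5, Ptprc and Adgre1. Some genes that the rule names are not reported here. Transcript lengths are from GENCODE M21 (GRCm38), taking the longest transcript with a RefSeq match. Alternatives were other pseudocounts, filters, scaling, prior, fits of the genotypes compared, the replicate number and leaving out each library. The shared term and the 6 libraries were chosen after seeing the data.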

Additional observations from a re-analysis of the deposited data

Results flagged for a closer look

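The effect of Tfam genotype differed with Zbp1 genotype for 2 members by a test of the difference itself. The interaction was -1.85 for Gbp2 and -2.29 for Gbp3 on the log2 scale (limma, adjusted p 0.019 and 0.030). For Gbp2 the change was 1.65 from WT to Tfam+/- and -0.20 from Zbp1-/- to Tfam+/-Zbp1-/-, and for Gbp3 these were 2.86 and 0.56. Both calls were lost in 5 of the fits that left out 1 library, in which limma called 0 of 13267 genes. The 10 tested leukocyte markers had a median of -0.70 in the same test, with 0 called.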

How the results depend on the processing

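In Tfam+/- against WT, Tfam+/-Zbp1-/- against Tfam+/- and the interaction, the tested members' log2 changes kept their sign in all 265 recomputed values. The number of members called did not hold. From 3 in Tfam+/- against WT it went to 5 with the shared term and 5 in the fit of 6. From 4 in Tfam+/-Zbp1-/- against Tfam+/- it went to 2 in a fit of only these genotypes and 2 with the replicate block, which called 2.65% of all genes. From 2 for the interaction it went to 1 with no filter on low values, 0 with the replicate block (limma called 0 of 13267 genes, with 1381 at an unadjusted p under 0.05), 5 with the shared term and 5 in the fit of 6. From 0 in Zbp1-/- against WT it went to 4 with the shared term, which called 28.5% of all genes higher. From 0 in Tfam+/-Zbp1-/- against WT it went to 4 with the shared term, where 35.3% of all genes were called higher. It went to 3 in a fit of only these genotypes, where 37.1% were called higher. From 0 in Tfam+/-Zbp1-/- against Zbp1-/- it went to 1 with the shared term, which called 23.8% of all genes. Gbp7 in Tfam+/- against WT also lost its call with no filter, in a fit of these genotypes and with the replicate block (limma, adjusted p 0.052, 0.11 and 0.14). Leaving out each library gave 0 to 3, 0 to 4 and 0 to 2 for the first 3 and 0 for the others. Where these first 3 gave 0, limma called 12, 12 to 13 and 0 of all genes. In the labels the replicates share only a number. Differences between replicate 1 and 2 correlated across genes at -0.70 to 0.06 between genotypes. The values farthest from 0 were -0.70 for Tfam+/- with Zbp1-/- and -0.37 for WT with Tfam+/-Zbp1-/-.

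Values near 0 changed sign. Leaving out 1 Zbp1-/- library put Gbp7 in Zbp1-/- against WT at -0.069 to 0.47 and Gbp6 in Tfam+/-Zbp1-/- against Zbp1-/- at -0.19 to 0.68. Gbp9 in Tfam+/-Zbp1-/- against WT ranged from -0.16 (without Tfam+/-Zbp1-/- replicate 2) to 0.29 (without replicate 1), was -0.0051 without WT replicate 2, and was -0.046 on rescaled libraries. In Tfam+/-Zbp1-/- against Zbp1-/-, the shared term gave -0.19 for Gbp6 and -0.038 for Gbp7, and the fit of 6 gave -0.19 for Gbp6. The cause was not tested. No fit of only the genotypes compared exists for the interaction, which needs all 4. Depth limits Gbp4, Gbp5 and Gbp8, at 0 to 11.0 normalized counts.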
